A study of Mus musculus with 2 samples.

Results

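The 10 miRNA genes described here lie between the noncoding gene Meg3 and the far end of the coding exon of Rtl1, in the imprinted Dlk1-Dio3 locus of mouse chromosome 12. They are Mir493, Mir337, Mir540, Mir665, Mir431, Mir433, Mir127, Mir434, Mir432 and Mir3071. They were chosen by position and not by any measured value, though earlier results of these data were known. They are 10 of the 1973 miRNA genes in the deposited tables. MicroRNA sequencing was done on neural tube, which gives rise to brain and spinal cord, of mice of the strain B6NCrl, taken at embryonic day 14.5. Both libraries belong to 1 group, so n = 2 throughout. Each came from another litter, pup 1 of dam 1 for replicate 1 and pup 1 of dam 2 for replicate 2, with no treatment, allele or transgene named for either. The labels describe each sample as a single neural tube and also give its sex as pooled, and these statements could not be reconciled. With 1 group there is no second tissue, age or condition, so the levels below are a description, and the only comparison is that of one library with the other.

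In the mouse the Dlk1-Dio3 locus is imprinted, so that most of its genes are read mainly from one parental copy. The protein-coding genes Dlk1 and Rtl1, and preferentially Dio3, are transcribed from the paternal chromosome, and the noncoding RNAs Meg3, Rian and Mirg, with the miRNAs along the same strand, from the maternal one. Rtl1 is a gene derived from a retrotransposon and is known for its role in the placenta. The miRNAs encoded on its antisense strand pair with the Rtl1 transcript along their whole length, so they can direct its cleavage and not only its repression through the seed, the bases near the 5′ end that select most miRNA targets. MiRNAs of the locus are abundant in embryonic and neural tissue. The counts are per gene and carry no variant positions, so neither the parental copy nor the hairpin arm of a read was measured here.

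Mature sequences are shown because pairing with Rtl1 is what divides these genes. All 10 genes matched the RefSeq miRNA table of GRCm38.p6, the assembly that is also called mm10, which gave 19 mature names. Each is written 5′ to 3′ with its seed, bases 2 to 8, in capitals. For the 4 genes between Meg3 and Rtl1 these were:
miR-493-5p: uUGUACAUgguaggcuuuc
miR-493-3p: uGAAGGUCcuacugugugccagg
miR-337-5p: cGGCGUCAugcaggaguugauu
miR-337-3p: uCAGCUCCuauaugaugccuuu
miR-540-5p: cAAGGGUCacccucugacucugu
miR-540-3p: aGGUCAGAggucgauccugg
miR-665-5p: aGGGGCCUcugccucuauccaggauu
miR-665-3p: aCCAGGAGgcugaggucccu

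For the 5 genes on the antisense strand of the Rtl1 coding exon they were:
miR-431-5p: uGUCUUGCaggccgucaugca
miR-431-3p: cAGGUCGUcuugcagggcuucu
miR-433-5p: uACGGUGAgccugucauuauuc
miR-433-3p: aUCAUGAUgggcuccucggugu
miR-127-5p: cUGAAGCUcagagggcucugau
miR-127-3p: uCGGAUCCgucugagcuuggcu
miR-434-5p: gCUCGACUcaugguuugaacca
miR-434-3p: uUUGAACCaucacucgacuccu
miR-432: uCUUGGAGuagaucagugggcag

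Mir3071 overlaps Mir136 on the opposite strand, and the arms of both are shown because the reads of Mir3071 may belong to either gene:
miR-3071-5p: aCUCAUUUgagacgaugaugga
miR-3071-3p: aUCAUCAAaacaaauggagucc
miR-136-5p: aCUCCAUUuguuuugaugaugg
miR-136-3p: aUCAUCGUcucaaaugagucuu

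The sequences divide the genes as their positions do, because a gene opposite the Rtl1 coding exon has its complement there by position. The numbers that follow describe this grouping and are no test of it. The Rtl1 transcript searched was the 6358-base one of GENCODE M21. Of the 9 mature names of Mir431, Mir433, Mir127, Mir434 and Mir432, 9 had their full complement in its coding part. The annotated transcripts of no other gene held these complements. Of the 8 mature names of Mir493, Mir337, Mir540 and Mir665, 0 had a full complement in that Rtl1 transcript. The arms of Mir3071 had the same letters as the Rtl1 transcript, being read from its strand. Those of Mir136, to which the reads of Mir3071 may belong, had their full complement in the coding part of Rtl1. One complement for each of Mir431, Mir433, Mir127, Mir434 and Mir432 is given below as the Rtl1 transcript reads. They lie on the minus strand of chromosome 12 in GRCm38, with the bases opposite the seed in capitals. The first lies at chr12:109590459-109590479, the second at chr12:109591781-109591802, then chr12:109592888-109592909, chr12:109594565-109594586 and chr12:109595006-109595028.
Opposite miR-431-5p: ugcaugacggccuGCAAGACa
Opposite miR-433-3p: acaccgaggagcccAUCAUGAu
Opposite miR-127-3p: agccaagcucagacGGAUCCGa
Opposite miR-434-3p: aggagucgagugauGGUUCAAa
Opposite miR-432: cugcccacugaucuaCUCCAAGa

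The miRNAs of the cluster share almost no seed with one another or with the rest of the mouse table. Of the 19 mature names, 18 (94.7%) had a seed found in no other of the 1679 mature names, against 1211 of the 1679 (72.1%) over the whole table. The exception was miR-540-3p, whose seed is also that of miR-6915-5p. The dinucleotide CG stood in the seeds of 5 of the 19 (26.3%), against 219 of the 1679 (13.0%), and the 5 were miR-337-5p, miR-431-3p, miR-433-5p, miR-127-3p and miR-434-5p. No mature sequence of the 10 genes occurred in another hairpin of the table, and the longest run that a member hairpin shared with any other of the 1005 hairpins was 11 to 14 bases. This bears on the counts, because reads at several positions, 32.4% of all reads in replicate 1 and 33.3% in replicate 2, were counted for no gene. The search covered exact matches among hairpins and not the genome, so whether reads of the 10 genes were lost in this way was not tested.

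The positions give the name of the group only in part. Meg3 ends at base 109571726, and 0 of the 10 genes lie inside it as annotated in GENCODE M21. Mir493, Mir337, Mir540 and Mir665 lie past its end and before Rtl1, on its strand, and no annotated gene of that strand holds them. Mir431, Mir433, Mir127, Mir434 and Mir432 lie opposite the coding exon of Rtl1, whose coding part runs from 109590172 to 109595403. RefSeq lists an Rtl1 antisense transcript at 109591537 to 109592851 that covers all 124 bases of Mir433 and 6 of the 70 bases of Mir127. The 10 genes span 15165 bases. Gaps between neighbours were smallest from Mir540 to Mir665, at 167 bases, and largest from Mir493 to Mir337, at 5473 bases.

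Levels are given as counts per 1000000 sense-strand miRNA counts (CPM), of which there were 3172235 in replicate 1 and 3671915 in replicate 2. The level of 3 counts, which a gene with no count could still have, was 0.946 CPM in replicate 1 and 0.817 in replicate 2. These limits and the exact 95% intervals below cover counting error only, since no molecular identifiers are named. How evenly the libraries captured each sequence was not measured here, so ratios between genes are ratios of reads. Over the 329 genes with at least 10 counts in both libraries, the libraries differed beyond sampling noise, with a chi-square per degree of freedom of 318. They were therefore kept as separate samples. In bulk tissue, fewer cells of a type and less RNA per cell cannot be told apart.

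The cluster was well represented in the neural tube. With at least 10 counts in each library as the rule, 9 of the 10 genes were detected, and Mir432 had no count in either library. Together the 10 genes had 37061 counts in replicate 1 and 56610 in replicate 2, or 1.17% and 1.54% of all miRNA counts. The detected members had a median of 719 CPM, and the 36 detected genes among the 49 others of the locus 278 CPM. With undetected genes included the medians were 550 and 106 CPM, where the 49 include rows whose reads lie in the other-strand column. Among the 360 genes that reached 10 counts in either library, the median was 122 CPM, and 8 of the 10 genes stood above it. Above 813 CPM, the upper quartile of those 360, stood 4 of the 10, and these were Mir127, Mir431, Mir434 and Mir433, all opposite Rtl1.

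**Figure D1:**
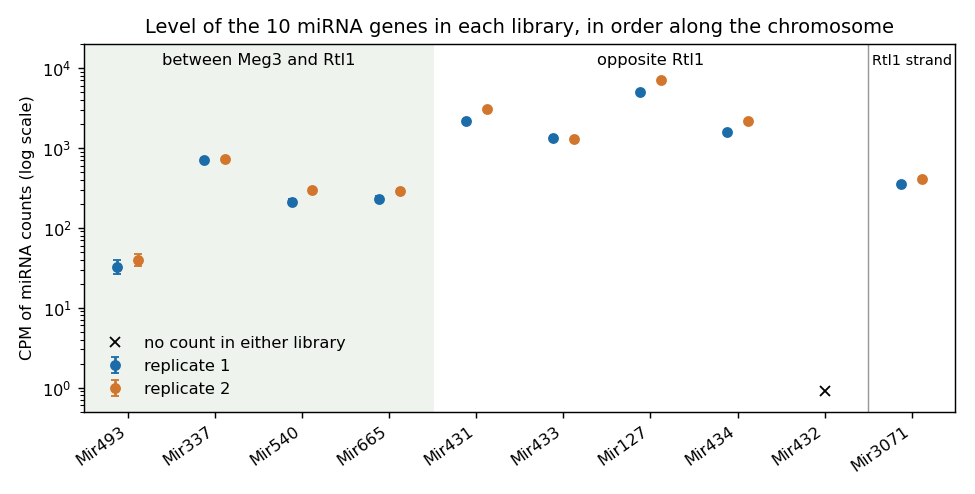
Level of each of the 10 genes in CPM on a log axis, in order along the chromosome, with 1 point per library and bars for the exact 95% interval of counting error. Mir127 is highest at 5076 and 7153 CPM, Mir493 is the lowest gene with counts at 32.5 and 39.8 CPM, and the cross marks Mir432, which had no count and is drawn near the level of 3 counts.

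Among the genes between Meg3 and Rtl1, Mir337 led. It lies at chr12:109585789-109585885 on the plus strand and had 2258 counts in replicate 1 and 2667 in replicate 2, which is 712 and 726 CPM. The libraries were close to each other, at 719 ± 10.3 CPM (SD, n = 2). Mir3544 is annotated opposite Mir337 and had no row of its own. Reads on the other strand of Mir337 numbered 3 in replicate 1 and 4 in replicate 2. Few reads thus came from the Mir3544 side if the authors' model of Mir337 lies on the plus strand, as in M21. The identifier carries version 3 in the deposited counts and version 4 in M21. The strand of the earlier model is not in the sources used here.

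Mir540 and Mir665 stood side by side in level as they do on the chromosome. Mir540, at chr12:109586080-109586146, had 673 and 1078 counts, or 212 and 294 CPM (253 ± 57.6). Mir665, at chr12:109586314-109586407, had 729 and 1050 counts, or 230 and 286 CPM (258 ± 39.7). Their ranges overlapped and their order differed between the libraries. The ratio of Mir540 to Mir665 was 0.923 in replicate 1 (exact 95% interval 0.830 to 1.03) and 1.03 in replicate 2 (0.942 to 1.12), so neither library told their levels apart by counting error alone.

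Mir493, the first of the cluster at chr12:109580233-109580315, was the lowest gene with counts. It had 103 counts in replicate 1 and 146 in replicate 2, or 32.5 and 39.8 CPM (36.1 ± 5.16). Mir337 exceeded it 21.9-fold in replicate 1 and 18.3-fold in replicate 2. Within the group of 4, Mir337 held 60.0% of the counts in replicate 1 and 54.0% in replicate 2, and Mir493 2.74% and 2.95%. A spread of more than an order of magnitude thus lay within a stretch of neighbouring genes on one strand.

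The genes opposite Rtl1 carried most of the cluster. Mir127, whose mature product is the best known of those that pair with Rtl1, lies at chr12:109592846-109592915 and had 16102 counts in replicate 1 and 26264 in replicate 2. That was 5076 and 7153 CPM, a mean of 6114 ± 1468 (SD, n = 2), which ranked 22 among all miRNA genes. Replicate 2 was the higher library. Mir127 alone took 0.508% of all miRNA counts in replicate 1 and 0.715% in replicate 2.

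Mir431 came next in both libraries. It lies at chr12:109590447-109590537, the first of the group along the chromosome, and had 6831 and 11168 counts, or 2153 and 3041 CPM (2597 ± 628). Mir434, at chr12:109594506-109594599, had 5039 and 7960 counts, or 1588 and 2168 CPM (1878 ± 410). The ranges of Mir431 and Mir434 overlapped, since Mir434 in replicate 2 stood just above Mir431 in replicate 1, while within each library Mir431 was higher, by 1.36-fold and 1.40-fold.

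Mir433, at chr12:109591715-109591838, differed from its neighbours in how it stood in the libraries. It had 4218 counts in replicate 1 and 4767 in replicate 2, or 1330 and 1298 CPM (1314 ± 22.2). On this scale it was slightly higher in replicate 1, whereas Mir431, Mir127 and Mir434 were higher in replicate 2. The ratio of Mir127 to Mir433 was 3.82 in replicate 1 (exact 95% interval 3.69 to 3.95) and 5.51 in replicate 2 (5.34 to 5.68), intervals that did not overlap. In contrast, the ratio of Mir127 to Mir431 was 2.36 (2.29 to 2.43) and 2.35 (2.30 to 2.40), and that of Mir127 to Mir434 was 3.20 and 3.30. Mir127, Mir431 and Mir434 thus kept nearly the same proportions in both libraries and Mir433 did not. The intervals cover counting error only, with 1 library per dam, so whether Mir433 differed beyond the usual spread between libraries was not tested.

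Mir432, at chr12:109594956-109595030, had 0 counts in both libraries and in both strand columns. The exact upper limits were 1.16 CPM in replicate 1 and 1.00 CPM in replicate 2. Mir434 lies 356 bases before it on the same strand. The mature miR-432 sequence occurred in no other hairpin of the table. The genome was not searched, so whether reads of Mir432 were lost at several positions was not tested.

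Mir3071 had 1108 counts in replicate 1 and 1510 in replicate 2, or 349 and 411 CPM (380 ± 43.8), but which miRNA these reads belong to could not be settled. GENCODE M21 places it at chr12:109595318-109595397 on the minus strand, the strand of Rtl1, where it overlaps 62 bases of Mir136 on the plus strand. Mir136 had no row in the tables. The identifier carries version 1 in the tables and version 2 in M21, and the strand of the model in the annotation used by the authors is not in the sources used here. Nearly all of its reads were counted as sense, with 1 read on the other strand in replicate 1 and 0 in replicate 2.

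The other minus-strand rows before the end of Mirg were read the other way round. Mir299b, opposite Mir299a, had 1 and 0 sense counts against 904 and 1752 on the other strand. Gm25750, opposite Mir380, had 0 in each against 1875 and 4173, Gm25252, opposite Mir376a, 0 against 9122 and 13648, and Gm24321, opposite Mir409, 0 against 9813 and 11328. These 4 rows were chosen after their values were seen. Over all rows with at least 10 reads that lie opposite a miRNA gene without a row, 18 of 29 were read mostly as sense and 11 mostly from the other strand. Mir3071 was also 1 of 4 members whose identifier has a different version in M21, with Mir337, Mir540 and Mir127.

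Ordered by mean level, the genes ran from Mir127 through Mir431, Mir434, Mir433, Mir337, Mir3071, Mir665, Mir540 and Mir493 to Mir432. Neighbours in that order whose ranges over the libraries overlapped were Mir431 with Mir434 and Mir665 with Mir540, and the other neighbours did not overlap. Gene lengths ran from 67 to 124 bases. Per 100 bases of hairpin the order was the same except that Mir540 and Mir665 changed places.

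In read counts the cluster was dominated by the genes opposite Rtl1. Their part of its counts was 86.9% in replicate 1 and 88.6% in replicate 2, and the genes between Meg3 and Rtl1 held 10.2% and 8.73%. The ratio of the former to the latter was 8.55 in replicate 1 (exact 95% interval 8.27 to 8.85) and 10.2 in replicate 2 (9.86 to 10.5). Mir127 alone made up 43.4% and 46.4% of the cluster, followed by Mir431 with 18.4% and 19.7% and Mir434 with 13.6% and 14.1%. Mir433 made up 11.4% in replicate 1 and 8.42% in replicate 2, and Mir337 6.09% and 4.71%, so both held a larger part of the cluster in replicate 1.

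**Figure D2:**
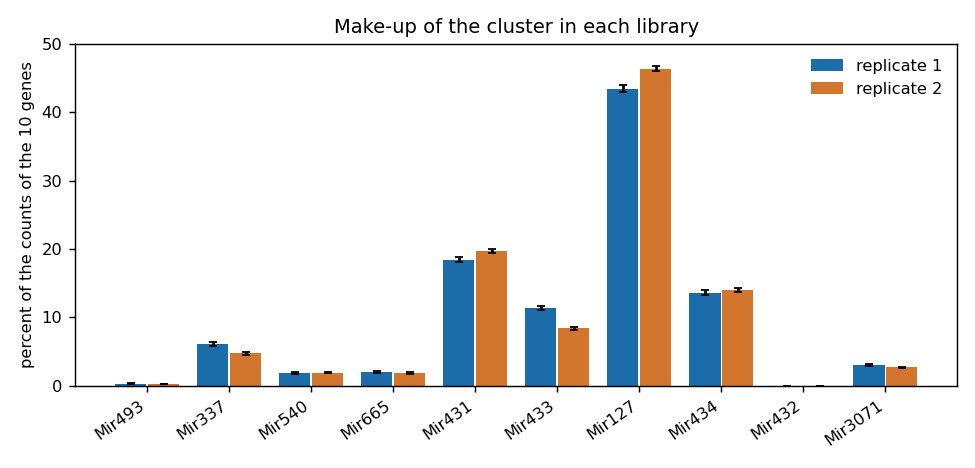
Percent of the counts of the 10 genes held by each gene, with 1 bar per library and the exact 95% interval of counting error. The bars of Mir127 reach 43.4% and 46.4%, while those of Mir433 and Mir337 are taller in replicate 1 than in replicate 2.

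Along the locus, the cluster stood between a few genes near Meg3 and the larger group near Mirg. Mir770, inside Meg3, had 3036 counts in replicate 1 and 2446 in replicate 2, or 812 ± 206 CPM (SD, n = 2). Mir673, just past the end of Meg3, had 236 and 225 counts. Between Mir665 and Mir431 lie Mir3070a, with 4 and 6 counts, and Mir3070b, with 1 and 0, so genes near zero stand between the part of the cluster beside Meg3 and the part opposite Rtl1.

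The 10 genes held 19.1% of the miRNA counts of the locus in replicate 1 and 24.6% in replicate 2, and Mir127 alone 8.32% and 11.4%. Of the other 49 genes, 36 were detected and 8 had no sense count. Among those 8 were Gm25750, Gm25252 and Gm24321, whose reads were counted on the other strand and so are not in the locus total. The 3 highest of these were Mir487b (mean 18013 ± 2910 CPM), Mir369 (mean 5268 ± 9.41 CPM) and Mir382 (mean 3760 ± 598 CPM). Mir127 was thus below Mir487b in both libraries. It was below Mir369 in replicate 1 (5076 against 5275 CPM) and above it in replicate 2 (7153 against 5262 CPM). With Mir487b left out of the locus, an alternative chosen after seeing the data, the 10 genes held 28.5% and 32.9%.

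**Figure D3:**
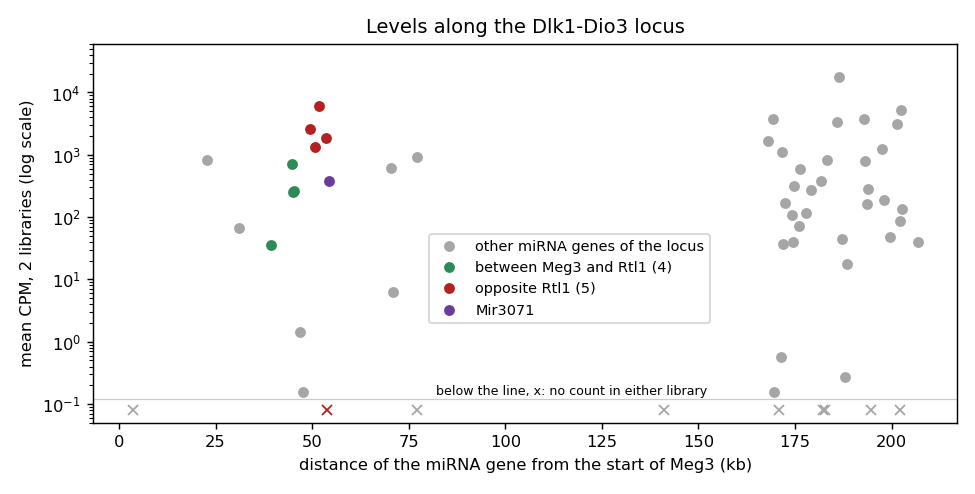
Mean CPM over both libraries, on a log axis, of each miRNA gene of the locus up to the last gene of the Mirg group, against its distance from the start of Meg3 in kb. The 4 genes with counts opposite Rtl1 form a peak that Mir127 tops at 6114 CPM, with the genes between Meg3 and Rtl1 below it. The points of Mir540 and Mir665 lie on top of each other, and crosses mark genes with no sense count.

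The libraries were then compared gene by gene, as log2 of replicate 1 over replicate 2 after TMM scaling (trimmed mean of M-values, which sets the bulk of the genes level), with the exact 95% interval of counting error. With 1 library per dam there is no test, and a gene was called only when past 2-fold. Of the 360 genes compared, 44 (12.2%) were past 2-fold, 16 higher in replicate 1 and 28 higher in replicate 2. Of the 9 members compared, 0 were past 2-fold, a count too small to set apart from that background. Their median was -0.10, against -0.02 over all 360 genes and -0.01 over the 36 others of the locus.

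The largest differences among the 10 genes went in opposite directions. Mir431 stood lowest at -0.29 (interval -0.33 to -0.24), with Mir127 at -0.28 (-0.31 to -0.25), Mir540 at -0.26 (-0.40 to -0.12) and Mir434 at -0.24 (-0.29 to -0.18). Mir433 stood highest at 0.25 (0.19 to 0.31), and Mir337 was at 0.18 (0.10 to 0.27). For scale, the median log2 ratio over all 360 genes, with its sign dropped, was 0.295. Mir493 at -0.08, Mir665 at -0.10 and Mir3071 at -0.02 had intervals that held 0. Scaling by total counts moved all ratios down by 0.21, to a median of -0.32 for the members and -0.23 for all genes, which took Mir337 to -0.03 and Mir433 to 0.03.

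Summed counts differed between the groups and do not show the differences within them. The genes opposite Rtl1 together had a log2 ratio of -0.22 (interval -0.24 to -0.20), the genes between Meg3 and Rtl1 0.03 (-0.03 to 0.09), and the rest of the locus 0.27 (0.26 to 0.28). Without Mir487b, an alternative chosen after seeing the data, the rest stood at 0.11 (interval 0.10 to 0.13). Of the 4 genes between Meg3 and Rtl1, 3 were below 0 although their sum was not. Gene by gene, the rest of the locus was split evenly, with 18 genes above 0 and 18 below. Its 3 highest genes and the neighbours near Meg3 were among those above, with Mir487b at 0.54, Mir382 at 0.54, Mir369 at 0.22, Mir770 at 0.74 and Mir673 at 0.49. On the side of Mir127 and Mir431 lay, among others, Mir496a at -0.53, the lowest of the rest, which was chosen after its value was seen. These sums rest on few abundant genes and on 1 library per dam.

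**Figure D4:**
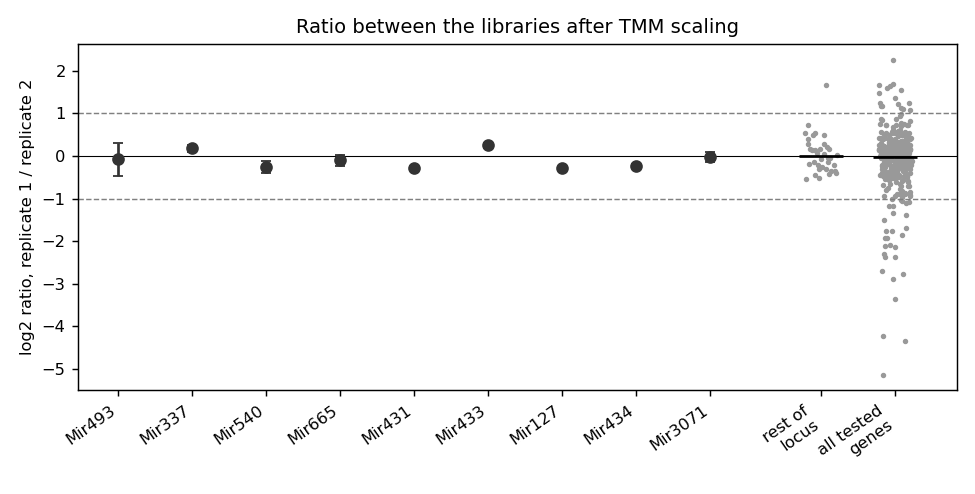
Log2 ratio of replicate 1 to replicate 2 after TMM scaling for the 9 members compared, with exact 95% intervals, beside the 36 other genes of the locus and all 360 genes, whose medians are drawn as bars. All 9 members lie between -0.29 and 0.25, inside the dashed lines that mark 2-fold.

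Marker genes of neural and other cell types were summed to check the labelled tissue. The 10 neural marker genes with a row, of which 7 were detected, summed to 17526 CPM in replicate 1 and 15697 in replicate 2, led by Mir137. The 3 sensory markers, led by Mir182, stood at 2109 and 15050 CPM, with 3 of 3 detected. The 7 mesenchyme markers stood at 3502 and 7561 CPM, with 5 detected, and Mir126a, a gene of endothelium, at 8443 and 17271 CPM. The 4 blood markers with a row summed to 149 and 275 CPM, the 7 epithelial ones to 407 and 508 CPM and Mir122 of liver stood at 43.5 and 35.9 CPM. The muscle markers summed to 44.1 and 51.7 CPM, with Mir133a-1 and Mir133a-2 listed at 0. Those copies encode the same mature miRNA, and reads at several positions were counted for no gene, so their 0 does not show absence. The same limit holds for the copies of Mir124a, of which the highest, Mir124a-1, had 6.62 and 6.26 CPM, and for Mir9-2, with 1.58 and 1.09 CPM. Replicate 2 was thus the library with more sensory, mesenchymal and endothelial signal. In CPM, the scale of these sums, every member with counts except Mir433 was higher in replicate 2. After TMM scaling 7 of the 9 members compared were higher there, as were 185 of all 360 genes. Of those 7, Mir127, Mir431, Mir434 and Mir540 had intervals below 0. The part of those markers in the members' levels was not tested.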

How the data were processed

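The authors deposited raw read counts per gene, 1 table for each of the 2 libraries, without normalization. Per the notes deposited with each library, reads were placed on assembly mm10 with gene annotation M4, and the aligner is not given in the sources used here, nor is any read filter. Both tables list 1973 miRNA genes, 3 count columns (either strand, sense, other strand) and 4 rows that name no gene, which stayed out of library sizes. Of 5941830 and 7074029 reads in all, the share at several positions is given above, and unmapped reads took 11.5% and 11.8%.

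The sense column was used, and CPM was computed from it. Symbols and positions came from GENCODE M21 by identifier without version (1894 matched) and sequences from RefSeq. Hairpin repeats and complements were searched as exact strings, complements in the M21 transcripts.

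Libraries were scaled with TMM in edgeR 4.0.16 under R 4.3.3 over genes with at least 10 counts in 1 library, with a prior count of 0.5 in log2 ratios. Intervals are exact binomial intervals (scipy 1.17.1). No p-value was computed, because 1 library per dam leaves no residual degrees of freedom, and the spread covers only these samples. The ratio and its interval were tried on counts simulated with counting error only and equal library sizes. That trial covers neither the TMM scaling nor the spread between the real libraries. Alternatives were other scalings (DESeq2 1.42.0 size factors, total counts), filters, prior counts, thresholds and strand columns.

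The members and gene lists were chosen with earlier results of these data known. Named genes were the 10 members, their annotated miRNA neighbours, genes opposite a member and the 3 highest others of the locus. Marker genes are named from their lists, and other genes are said to have been chosen after their values were seen.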

Additional observations from a re-analysis of the deposited data

Results flagged for a closer look

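Counts on the other strand entered no level or ratio of the report, only the description of strand rows and the alternatives below, and were above the limit of 3 counts in these rows. Those of the other 49 genes of the locus summed to 21714 in replicate 1 and 30901 in replicate 2. For Mir337 the other-strand count of replicate 2 was 4. With 2 libraries in 1 group, no check for an outlying library was run.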

How the results depend on the processing

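Of 45 recomputed member ratios, 37 stayed inside the gene's own exact interval, and the 8 that did not came from scaling by total counts. Taking all reads as the denominator lowered the summed share of the members to 0.712%. Scaling by total counts moved the members' median log2 ratio to -0.32. Past 2-fold were 230 of 678 genes (33.9%) with a filter of 1 count and 21 of 265 (7.92%) with a filter of 100 counts, and past 1.5-fold 89 of 360 (24.7%), with 0 of 9 members each time. Leaving out 1 of 2 libraries gives back the value of the other, 1.17% to 1.54% for the summed share and 19.1% to 24.6% for the share of the locus, and says nothing of stability. The mean share of the locus was 21.9% from sense counts and 19.4% with reads of either strand counted. It was 30.7% without Mir487b. Without Mir3071, the summed share was 1.32%, the share of the locus 21.2% and the median log2 ratio -0.17. The low counts of Mir493 limit its ratio most, with an interval from -0.46 to 0.29. No paired analysis was possible because there is only 1 group. Alternatives that leave out Mir3071 or Mir487b were chosen after seeing the data.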

Other observations

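Some hairpins of the cluster repeat a stretch of themselves. The Mir434 hairpin holds UGGUUUGAACCAU, 13 bases, starting at positions 33 and 57 counted from 1 at its 5′ end, so that it spans parts of both arms. Mir431 holds GUCUUGCAGG, 10 bases, at positions 14 and 62, and Mir540 holds GGCCAAGGGU, 10 bases, at positions 3 and 29. Within a cluster whose seeds differ, Mir337 and Mir431 share CGUCAUGCAGG, 11 bases. The GC content of the 10 hairpins ran from 45.7% in Mir434 to 61.2% in Mir540, around a median of 51.7% over the 1005 hairpins of the table.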
